A study of Mus musculus with 5 samples.

Results

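The genes described here are 7 enzymes of citrulline synthesis and the urea cycle, Cps1, Otc, Ass1, Asl, Arg2, Oat and Aldh18a1. They were taken by symbol from the deposited gene table, and all 7 were found among its 27933 distinct symbols. The cells came from the epithelium of the ileum, the distal end of the small intestine, of C57BL/6 mice aged 8 to 12 weeks. No genotype, transgene or drug is named for either group. The 3 sham libraries came from mice with sham surgery, and the 2 resection libraries from mice with small bowel resection; resection is surgical removal of part of the gut. The labels give neither the time after surgery, nor how much was removed, nor how many mice a library holds. The p-values therefore measure the spread between libraries, which may be partly technical. The measurement is droplet single-cell RNA sequencing of transcript 3' ends, in which a unique molecular identifier (UMI) marks each captured RNA molecule.

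Small intestinal epithelium is a main source of circulating citrulline in mammals. Its mitochondria turn glutamine and glutamate carbon into ornithine and then citrulline, which leaves the cell and is made into arginine mainly in the kidney. Plasma citrulline is used in the clinic as a measure of functional enterocyte mass after bowel loss. Aldh18a1 encodes the enzyme that reduces glutamate towards pyrroline-5-carboxylate, and Oat encodes ornithine aminotransferase, which links pyrroline-5-carboxylate with ornithine. Cps1 makes carbamoyl phosphate from ammonia, and Otc joins it to ornithine to give citrulline. Ass1 and Asl, both cytosolic, convert citrulline to arginine, and Arg2, the mitochondrial arginase, splits arginine into ornithine and urea.

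In the RefSeq annotation of GRCm38.p6, the members lie on 7 different chromosomes. Cps1 spans positions 67122426 to 67231267 of chromosome 1, Ass1 spans 31470270 to 31520670 of chromosome 2, and Asl spans 130011258 to 130024381 of chromosome 5. Oat spans 132557475 to 132576398 of chromosome 7, Arg2 spans 79130788 to 79156301 of chromosome 12, and Aldh18a1 spans 40550257 to 40588463 of chromosome 19. Otc, an X-linked gene, spans 10252230 to 10321024. The RefSeq promoter table of that build held windows for 4 of the 7, each from 250 bases before to 50 bases after a transcript start. The windows of Oat and Aldh18a1 are shown because both genes had their highest mean level in immature enterocyte-like cells. That of Otc is shown because it catalyses the citrulline-forming step. Capitals mark matches, on either strand, to the GC box GGGCGG or to the CDX-type motif TTTATG.
Oat, chr7:132576349-132576648, minus strand: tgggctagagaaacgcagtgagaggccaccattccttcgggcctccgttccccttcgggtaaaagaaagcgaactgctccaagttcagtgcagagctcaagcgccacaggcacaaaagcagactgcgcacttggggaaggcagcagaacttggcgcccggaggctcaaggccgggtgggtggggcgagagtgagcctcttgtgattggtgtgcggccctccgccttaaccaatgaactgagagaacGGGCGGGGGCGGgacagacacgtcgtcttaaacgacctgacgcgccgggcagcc
Aldh18a1, chr19:40588414-40588713, minus strand: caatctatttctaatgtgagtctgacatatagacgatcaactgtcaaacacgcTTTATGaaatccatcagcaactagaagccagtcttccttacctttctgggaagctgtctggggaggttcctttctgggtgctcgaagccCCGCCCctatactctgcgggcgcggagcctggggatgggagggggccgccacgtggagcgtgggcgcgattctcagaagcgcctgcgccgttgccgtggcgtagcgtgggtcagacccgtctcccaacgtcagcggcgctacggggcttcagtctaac
Otc, chrX:10252055-10252354, plus strand: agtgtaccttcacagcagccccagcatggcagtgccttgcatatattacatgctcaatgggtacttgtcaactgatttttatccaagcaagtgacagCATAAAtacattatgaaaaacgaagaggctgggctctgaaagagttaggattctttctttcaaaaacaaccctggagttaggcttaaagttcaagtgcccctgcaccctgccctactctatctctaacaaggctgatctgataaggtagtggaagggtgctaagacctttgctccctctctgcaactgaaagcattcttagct

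The Oat window held 2 adjacent GC boxes, the Aldh18a1 window 1 GC box and 1 CDX-type match, and the Otc window 1 CDX-type match and no GC box. Over all 32544 promoter windows of the table, 35.9% held a GC box and 11.9% a CDX-type match, so neither is rare. Searches on both strands for an HNF4-type motif (CAAAGTNCA), a TATA box (TATAAA) and a C/EBP-type motif (TTGCNNAA) gave no match in these windows. Those letters occurred in 1.43%, 13.6% and 10.8% of all windows.

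The 5 libraries held 19404 deposited cells, between 1402 and 7233 each, and 18235 were kept, with a median of 4521 to 6193 UMIs per kept cell and a median mitochondrial share of 7.22% to 13.3%. Names of cell classes that rest on marker genes end in "-like". The classes held 641 Hells-led, 1002 cycling-like, 2982 immature enterocyte-like, 11538 enterocyte-like, 556 goblet-like, 1032 Paneth-like, 26 tuft-like and 458 T cell-like cells. The class called Hells-led was nearest to the stem cell markers, but its leading genes were mostly DNA replication genes (Hells, Dut, Mcm6) with Slc12a2 and Cdca7. It had 16.9 CPM (UMIs of a gene per 1000000 UMIs) of the stem cell gene Lgr5 and 128 CPM of the proliferation gene Mki67, against 6.68 and 266 CPM in cycling-like cells, so it is named by its first gene and is not taken as stem cells. Its place before cycling-like cells is an order of listing, not a measured order, and sham 1 had only 19 Hells-led cells. Sham 1 and resection 1 stood apart from the other 3 libraries: the share of enterocyte-like cells falling in the same clusters was 22.0% to 34.7% for the 4 pairs within these sets and 1.97% to 3.82% for the 6 pairs across them. The labels name no batch, so values within each library set are given beside the surgery results. Immature enterocyte-like and Paneth-like cells also came from different clusters in the 2 sets, and 197 of 19204 distinct cell barcodes occurred in more than 1 library. The ileal label fitted its marker Fabp6, at a mean of 27141 CPM in enterocyte-like cells, but its level was uneven, from 7545 to 44538 CPM over the libraries. The enterocyte-like cluster led by Lct, Apoa4 and Fabp1 took 98.3% of its cells from resection 1. Of 4 liver control genes, Alb and Serpina1a gave no UMI in any class, but Ttr and Arg1 were detected. Mean Ttr levels ran from 0.52 CPM (enterocyte-like) to 20.2 CPM (goblet-like), with 11.7 CPM for Hells-led and 6.30 CPM for cycling-like cells. The highest mean of Arg1 was 0.38 CPM, that of goblet-like cells.

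The members followed different courses from crypt to villus. By mean level, Cps1 was highest in Hells-led cells and lower in each class listed after them up to the lower zone of enterocyte-like cells. Oat and Aldh18a1 had their highest mean in immature enterocyte-like cells, and Arg2 in enterocyte-like cells. Otc and Asl varied less, and Ass1 was close to absent. Levels are given in CPM, a gene's share of all UMIs summed over a class in 1 library, and differences as log2(CPM + 10), paired within a library, with the SD over the 5 libraries. Because the classes were built from the same cells, these differences carry no test. Enterocyte-like cells were divided in each library into 3 zones of equal cell number by a score of villus tip genes minus lower villus genes, and 11.5% to 18.6% of cells lay within 0.1 SD of a boundary. Median UMIs per cell ranged over the libraries from 4828 to 6556 in the lower zone and from 3326 to 5003 in the upper zone.

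**Figure D1:**
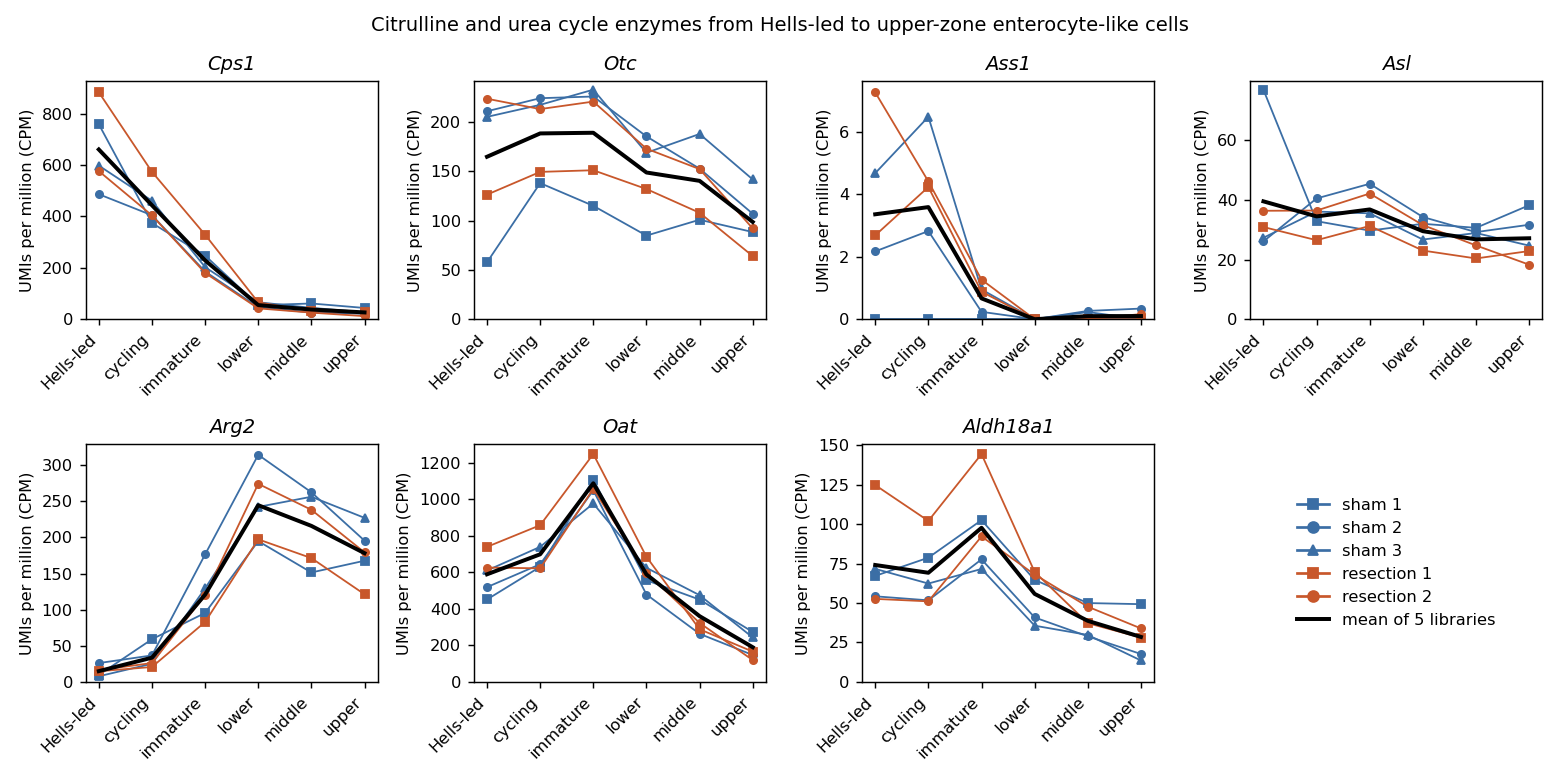
CPM of each member gene (y axis, linear, own scale per gene) in Hells-led, cycling-like and immature enterocyte-like cells and in the lower, middle and upper zones of enterocyte-like cells (x axis). Coloured lines are the 5 libraries and the black line their mean; the mean of Cps1 goes from 661 in Hells-led cells to 26.4 in the upper zone, while that of Oat is highest, at 1088, in immature enterocyte-like cells.

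Cps1, the mitochondrial ammonia-fixing step, had 759, 487 and 598 CPM in Hells-led cells of sham 1, 2 and 3 and 883 and 577 CPM in those of resection 1 and 2. In enterocyte-like cells the same libraries had 53.3, 32.5, 47.3, 43.1 and 28.5 CPM. Every library was thus lower in enterocyte-like than in Hells-led cells, and the ranges did not overlap. The mean ± SD over the 5 libraries was 661 ± 159 CPM in Hells-led cells, 444 ± 79.3 in cycling-like cells, 229 ± 61.8 in immature enterocyte-like cells and 40.9 ± 10.3 in enterocyte-like cells. The difference between cycling-like and enterocyte-like cells was -3.16 ± 0.35 on the log2 scale, or 10.8-fold between the mean CPM values. Each step of this order held in 5 of 5 libraries, from Hells-led to cycling-like (-0.55 ± 0.29) to immature enterocyte-like (-0.94 ± 0.25) to the lower zone (-1.86 ± 0.25). The middle minus lower zone difference of Cps1 was -0.48 ± 0.38, negative in 4 of 5 libraries, and the upper minus lower zone difference was -0.88 ± 0.37.

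Oat, which can feed ornithine to Otc, had 1108, 1050 and 977 CPM in immature enterocyte-like cells of sham 1, 2 and 3 and 1248 and 1058 in those of resection 1 and 2. All 5 libraries had their highest Oat level in this class. Its mean was 589 ± 110 CPM in Hells-led cells, 699 ± 101 in cycling-like cells and 1088 ± 101 in immature enterocyte-like cells. Beyond that stage the level was 589 ± 77.2 CPM in the lower zone, 360 ± 96.6 in the middle zone and 190 ± 65.6 in the upper zone, lower at each step in 5 of 5 libraries. The difference between upper and lower zones was -1.63 ± 0.49, the farthest from 0 among the 7 members. Hells-led and cycling-like cells differed by 0.25 ± 0.17, higher in cycling-like cells of 4 of 5 libraries.

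Aldh18a1, the glutamate end of the route to pyrroline-5-carboxylate, also had its highest mean in immature enterocyte-like cells. This did not hold in every library. Sham 3 had 71.7 CPM in Hells-led and 71.6 in immature enterocyte-like cells, and sham 1 had 106 in goblet-like and 103 in immature enterocyte-like cells. Its mean was 74.2 ± 29.5 CPM in Hells-led cells, 69.2 ± 21.5 in cycling-like cells and 97.8 ± 28.8 in immature enterocyte-like cells. Hells-led and cycling-like cells did not differ beyond their spread (-0.07 ± 0.18), and the immature class was higher than the cycling class in 5 of 5 libraries (0.45 ± 0.21). In the lower, middle and upper zones the means were 55.8, 38.7 and 28.5 CPM, lower at each step in 5 of 5 libraries. The 5 upper-zone values were 49.3, 17.7, 13.6, 28.1 and 33.9 CPM in sham 1, 2, 3 and resection 1 and 2, so sham libraries held both the highest and the lowest value.

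Arg2, the mitochondrial arginase, ran the other way. It had 59.1, 36.7 and 25.1 CPM in cycling-like cells of sham 1, 2 and 3 and 20.6 and 26.1 in those of resection 1 and 2. In enterocyte-like cells the values were 171, 265, 244, 166 and 237 CPM in the same order. Every library was higher in enterocyte-like cells, and the lowest of these values lay above the highest cycling-like value. The paired difference was 2.42 ± 0.59, with sham 1 lowest at 1.39, and the ratio of the mean CPM was 6.45. Arg2 was higher at each step from Hells-led cells (14.9 ± 7.16 CPM) to the lower zone (245 ± 51.1 CPM) in 5 of 5 libraries, and its upper minus lower zone difference was -0.44 ± 0.27, negative in 5 of 5 libraries.

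Otc, the citrulline-forming enzyme, had 165 ± 70.9 CPM in Hells-led cells, 188 ± 41.1 in cycling-like cells and 189 ± 52.9 in immature enterocyte-like cells. These 3 neighbours did not differ beyond their spread. Enterocyte-like cells had 132 ± 32.9 CPM, lower than immature enterocyte-like cells in 5 of 5 libraries (-0.47 ± 0.11). The lower and middle zones were alike within their spread (149 ± 40.9 and 140 ± 35.9 CPM), and the upper zone had 98.5 ± 28.6 CPM, below the middle zone in 5 of 5 libraries (-0.47 ± 0.21). Much of the spread followed the library sets: in enterocyte-like cells sham 1 and resection 1 had 91.5 and 104 CPM, and sham 2, sham 3 and resection 2 had 153, 168 and 144 CPM.

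Asl, which releases arginine and fumarate from argininosuccinate, kept a mean between 26.7 and 39.5 CPM through all 6 stages. Of the 5 neighbouring pairs, none differed in the same direction in all 5 libraries. The Hells-led mean (39.5 ± 21.3 CPM) rests on sham 1, where 19 cells gave 76.9 CPM against 26.1 to 36.3 CPM in the other 4 libraries.

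Ass1, which consumes citrulline, gave 123 UMIs in all epithelial cells together. Cycling-like cells gave 39 of them and Paneth-like cells 40, while the 11538 enterocyte-like cells gave 4. The mean was 3.59 ± 2.39 CPM in cycling-like cells, 0.67 ± 0.53 in immature enterocyte-like cells and 0.06 ± 0.08 in enterocyte-like cells. Sham 1 and resection 1 had no Ass1 UMI in enterocyte-like cells, where a limit of 3 UMIs allows levels of up to 0.780 and 0.214 CPM, counting error only. The lower zone gave 0 UMIs in all 5 libraries. At this depth no difference between the villus zones was detectable for Ass1.

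These directions were also counted over all genes. Of the 6 members with a mean of at least 20 CPM (all but Ass1), 3 were lower and 1 higher in enterocyte-like than in cycling-like cells of all 5 libraries, where 46.8% and 30.1% of 5136 genes behaved in these ways. Between enterocyte-like and immature enterocyte-like cells 4 members were lower and 1 higher, beside 45.5% and 30.2% of genes. From cycling-like to immature enterocyte-like cells 3 were higher (Arg2, Oat, Aldh18a1) and 1 lower (Cps1), beside 24.1% and 34.6% of genes. From Hells-led to cycling-like cells 1 was higher (Arg2) and 1 lower (Cps1), beside 19.3% and 13.2%. From the lower to the upper zone 4 were lower (Cps1, Arg2, Oat, Aldh18a1) and none higher, beside 26.6% and 25.5% of 4459 genes. The steps between neighbouring zones had 2 members lower from lower to middle (18.8% of genes; 18% higher) and 4 lower from middle to upper (18.9%; 18% higher), and from immature enterocyte-like cells to the lower zone 4 were lower and 1 higher (43.8% and 25.3%). The median member difference between upper and lower zones was -0.68, and the median over all genes was 0.01.

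The same class sums can also be read as where each gene's UMIs lay. Enterocyte-like cells held 52.1% of all epithelial UMIs, averaged over the 5 libraries, but 18.1% of Cps1 UMIs (range 15.3% to 23.6%) and 78.9% of Arg2 UMIs (74.1% to 83.0%). Hells-led, cycling-like and immature enterocyte-like cells held 15.4%, 25.1% and 35.6% of Cps1 UMIs. Oat was divided nearly evenly between immature enterocyte-like cells (40.1%) and enterocyte-like cells (41.5%). Otc and Asl, at 54.9% and 53.0% in enterocyte-like cells, were close to the 52.1% of all UMIs.

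**Figure D2:**
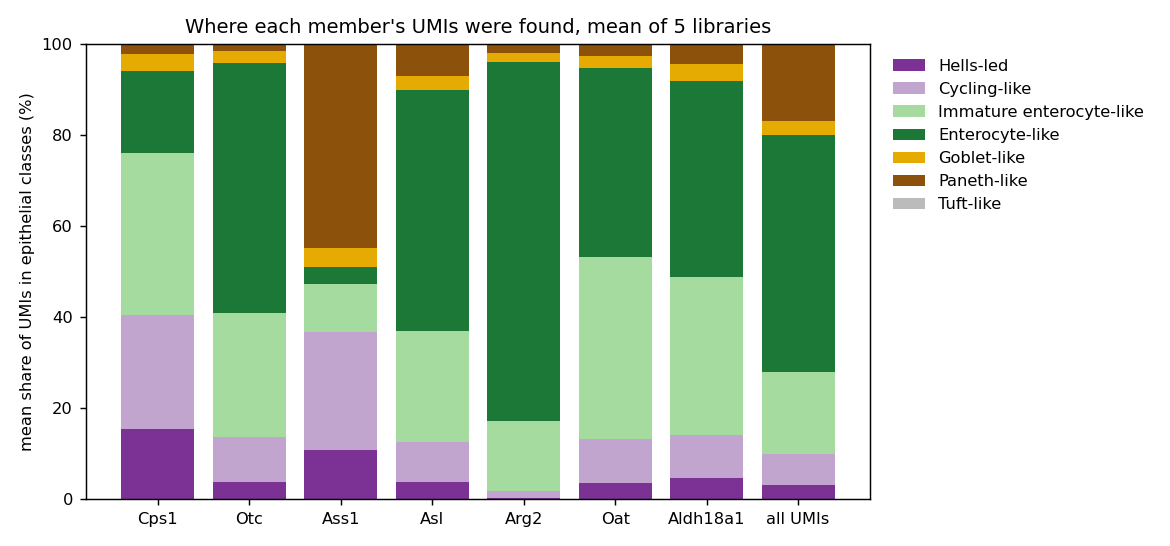
Mean share over 5 libraries of each member gene's epithelial UMIs (y axis, percent) found in each class (colours), with the share of all UMIs in the bar at the right. Crypt and immature classes hold most Cps1 UMIs and enterocyte-like cells 78.9% of Arg2 UMIs; the Ass1 bar rests on 123 UMIs.

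Shares of cells with a UMI gave the same order after each cell was thinned to 2000 UMIs, which left out no cell. Cps1 was then detected in 68.1% of Hells-led, 56.4% of cycling-like, 35.9% of immature enterocyte-like and 7.23% of enterocyte-like cells (90.003%, 90.9%, 71.2% and 18.7% before thinning). Arg2 was detected in 4.92% of cycling-like and 33.4% of enterocyte-like cells (16.1% and 62.0% before thinning). Median UMIs per cell were 7162 in cycling-like and 4865 in enterocyte-like cells, as medians over the libraries. T cell-like droplets, taken for comparison, had a median of 5829 UMIs. After thinning they gave Cps1 in 14.9%, Arg2 in 18.6%, Otc in 17.0%, Oat in 43.8%, Asl in 6.50% and Aldh18a1 in 8.76%. They also held Fabp6 at 16571 CPM, so they carry epithelial RNA and are no clean negative. How much of each member's RNA was the T cells' own was not tested. Enterocyte-like cells were at or below the T cell-like shares for Cps1, Asl (5.34%) and Aldh18a1 (7.70%). These 3 thus cannot be told from free RNA by this measure, and the Oat shares were nearly equal (44.0%). Otc (21.7%) and Arg2 were above them.

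Other epithelial classes differed from enterocyte-like cells in a few members. Goblet-like cells had 153 ± 40.9 CPM of Cps1 against 40.9 ± 10.3 in enterocyte-like cells, higher in 5 of 5 libraries, and Aldh18a1 was also higher in 5 of 5 (62.9 ± 25.2 CPM). Arg2 was lower in goblet-like cells of 5 of 5 libraries (104 ± 32.7 CPM). Among all genes, 26.7% were higher and 27.8% lower in goblet-like cells of all 5 libraries. Goblet-like cells also held more of the crypt genes Mki67 (56.4 against 3.56 CPM), Top2a (57.7 against 2.71 CPM) and Slc12a2 (90.1 against 4.44 CPM), whose part in the Cps1 difference was not tested. In Paneth-like cells, whose leading genes are of the alpha-defensin family, 6 members were lower than in enterocyte-like cells in every library; 5 of them passed the 20 CPM minimum, and 97.2% of all genes passing it were lower in every library and 1.85% higher. Ass1, under the 20 CPM minimum of that count, was higher in Paneth-like cells of 5 of 5 libraries, at 2.72 ± 0.9996 CPM.

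Enterocyte-like cells were themselves uneven. They formed 10 clusters, of which 7 took over 90% of their cells from 1 library. Oat ranged over the 10 clusters from 127 CPM in the cluster led by Ada, Cyp3a11 and Apoc3 to 827 CPM in the cluster led by Fgf15. The first of these took 91.4% of its cells from resection 2 and the second 75.4% from resection 1. Cps1 had its lowest and highest levels in the same pair of clusters, 11.2 and 83.8 CPM. Arg2 ranged from 128 to 283 CPM, with its highest level in the cluster led by Fabp6 and Gsta1 (48.7% of its cells from resection 2), and Otc ranged from 89.3 to 187 CPM.

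The genes whose levels were most like each member's over 25 sums (5 classes in 5 libraries, 4577 genes compared) were named by rank. For Cps1 they were Serbp1 (Pearson r 0.989), Hnrnpa1 and Cct3, and for Otc the respiratory chain genes Sdhc (0.996), Uqcrc2 and Ndufv2. For Oat they were Prdx6 (0.99), Echs1 and Uqcr11, and for Aldh18a1 Ndrg3 (0.96), Setd5 and Mgat4b. For Arg2 they were Slc7a9 (0.97), a cystine and dibasic amino acid transporter subunit, Fahd1 and Ms4a8a. Asl was nearest to Vrk3 (0.93), Psmb9 and Comtd1, and Ass1, at very low counts, to Rfc1 (0.70), Tk1 and Cd24a. The sums share libraries, and the low level of most genes in Paneth-like sums enters every value. Among the members, Oat and Otc were alike at 0.92 and Oat and Aldh18a1 at 0.91, whereas Cps1 and Arg2 stood at 0.10.

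The neighbouring genes of the pathway were 30 genes that supply substrates, carry them across membranes or use the products. Of these, 20 had a mean of at least 20 CPM over cycling-like and enterocyte-like cells. In enterocyte-like cells 12 of the 20 were higher and 5 lower in all 5 libraries, beside 30.1% and 46.8% of all genes, with a median difference of 0.84 against -0.19 for all genes. The median of the 6 members with that level was -0.54.

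Among genes of glutamine and glutamate supply, those higher in enterocyte-like cells of 5 of 5 libraries included Gpt, an alanine aminotransferase (204 against 35.5 CPM in cycling-like cells), and Slc25a22, a mitochondrial glutamate carrier (64.4 against 20.1 CPM). Got2, the mitochondrial aspartate aminotransferase, was lower (13.4 against 64.8 CPM), and Glud1, glutamate dehydrogenase, was mixed. On the proline side, Pycrl, a pyrroline-5-carboxylate reductase, was lower (42.0 against 98.4 CPM) and Prodh, proline dehydrogenase, mixed. Slc25a15, the mitochondrial ornithine carrier, was higher (185 against 89.8 CPM), and Nags, which makes the activator of Cps1, was at 36.9 and 32.5 CPM with no common direction. Of the users of arginine and ornithine, Azin1, Nos2 and Ddah1 were higher and Odc1, the first enzyme of polyamine synthesis, was lower (46.7 against 132 CPM). Of the 7 membrane transporters, 5 were higher and 2 lower. Slc6a19, a brush-border neutral amino acid transporter, had 441 against 51.8 CPM, and Slc7a9 had 309 against 49.9 CPM. The glutamine transporter Slc1a5 (3.31 against 40.3 CPM) and the arginine transporter Slc7a1 (7.67 against 57.2 CPM) were the lower 2. No UMI of Arg1, the liver arginase, was counted in enterocyte-like cells of the 5 libraries.

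**Figure D3:**
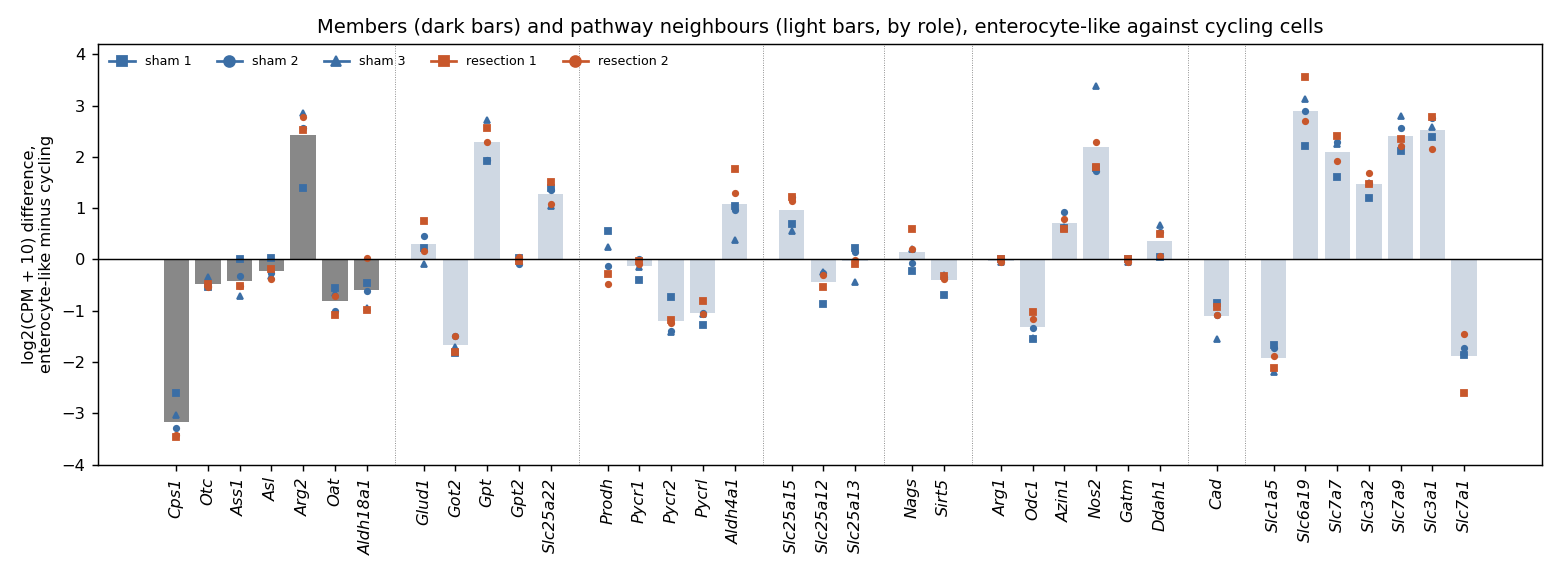
Difference in log2(CPM + 10) between enterocyte-like and cycling-like cells (y axis) for the 7 members (dark bars) and the pathway neighbours reported here, grouped by role (light bars). Bars are means of 5 libraries and points the libraries; Cps1 stands lowest at -3.16, and Slc6a19 highest at 2.90.

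The surgery comparison asked whether resection altered these genes within a class. No member passed the threshold in any class, with edgeR's quasi-likelihood test on summed counts and Benjamini-Hochberg adjustment over all genes. Of the 6 members tested in enterocyte-like cells none was called (0% of 10300 genes were), none had an unadjusted p below 0.05, and DESeq2, which called 0.743% of genes, called none. Nor was a member called with library set as a term (0.155% of genes) or with the replicate number as a block (3.87%). In enterocyte-like cells 5 members had lower and 1 higher fitted levels after resection, with a median log2 fold change of -0.21 against -0.02 for all genes. Only 3 of these 6 had the same direction within both library sets. Ass1 had too few UMIs for the test in enterocyte-like cells.

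**Figure D4:**
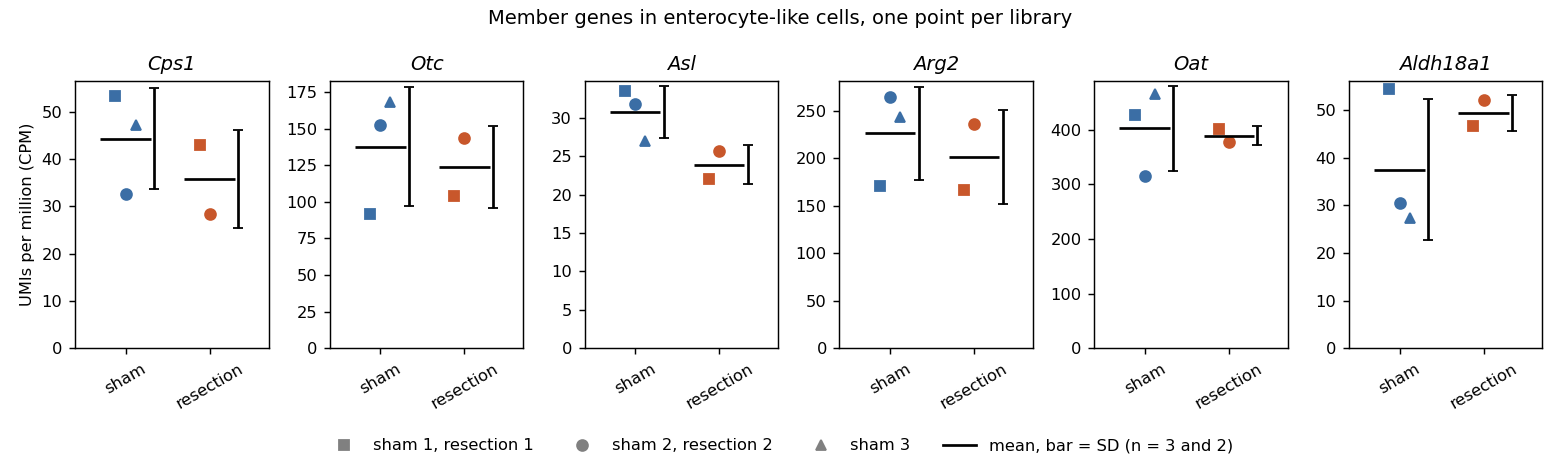
CPM of 6 member genes in enterocyte-like cells (y axis from 0, own scale per gene) in 3 sham and 2 resection libraries, 1 point per library, with mean and SD. Squares are sham 1 and resection 1, which share clusters; Asl is the 1 gene in which both resection libraries (22.1 and 25.7) lie below every sham library.

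Asl had 33.5, 31.8 and 27.0 CPM in enterocyte-like cells of sham 1, 2 and 3 and 22.1 and 25.7 CPM in those of resection 1 and 2. The groups did not overlap, as was so in the lower direction for 6.61% of genes and in the upper direction for 8.5%. The edgeR log2 fold change was -0.39 ± 0.25 (SE), with an adjusted p of 0.998. Within sham 1 and resection 1 the difference was -0.49, and within the other set -0.22. All differences within a library set are in log2(CPM + 1) after edgeR's TMM scaling, so unscaled CPM values do not give them. In the other set, resection 2 is set against the mean of sham 2 and 3.

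Cps1 had 53.3, 32.5 and 47.3 CPM in the sham libraries and 43.1 and 28.5 in the resection libraries, and the groups overlapped. Its edgeR log2 fold change was -0.35 ± 0.26 (SE; adjusted p 0.998), and it was -0.21 and -0.49 within the 2 library sets. Aldh18a1 had 54.6, 30.5 and 27.5 CPM in the sham libraries and 46.7 and 52.1 in the resection libraries. Sham 1 was the highest of the 5 here, and the fold change of 0.42 ± 0.28 (adjusted p 0.998 with edgeR) split into -0.13 within sham 1 and resection 1 and 0.79 within the other set.

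Otc, at 91.5, 153 and 168 CPM in the sham libraries and 104 and 144 CPM in the resection libraries, had a log2 fold change of -0.21 ± 0.42 (SE). It was 0.27 within sham 1 and resection 1 and -0.20 within the other set. Arg2 (-0.22 ± 0.39) and Oat (-0.08 ± 0.30) also had overlapping groups, with edgeR adjusted p of 0.998 each. With 2 SE on each side, the intervals reached from -1.05 to 0.63 for Otc and from -0.68 to 0.52 for Oat. These intervals are not detection limits. The threshold is on p adjusted over all genes tested, so larger changes could also be missed with 5 libraries.

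In the other classes the members' log2 fold changes lay between -0.65 and 0.20 in cycling-like cells, -0.47 and 0.43 in immature enterocyte-like cells, -0.50 and -0.0049 in goblet-like cells and -0.33 and 0.81 in Paneth-like cells. None of the 6, 6, 6 and 7 members tested was called, where the tests called 0%, 0%, 0% and 0.032% of genes, and none had an unadjusted p below 0.05. The lowest of these p was 0.106, for Arg2 in cycling-like cells (-0.65 ± 0.36; adjusted p 0.9998 with edgeR). Hells-led cells were not tested because sham 1 had 19.

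DESeq2 also called no member in these 4 classes, where it called 0.0219%, 0.0204%, 0.0635% and 0.0799% of genes. The fits with library set as a term (0.0437%, 0%, 0.0159% and 0.16%) and with the replicate block (0.503%, 1.18%, 1.6% and 0.767%) called none either.

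Groups that did not overlap were few in these classes. In cycling-like and immature enterocyte-like cells no member had both resection libraries above or both below every sham library in CPM. Among genes, 5.98% lay above and 4.07% below in cycling-like cells, and 5.22% and 3.16% in immature enterocyte-like cells. After TMM scaling, Aldh18a1 had both resection libraries above every sham library in immature enterocyte-like cells, and Asl had both below in Paneth-like cells. The shares of genes given here are for CPM without that scaling, so neither of these cases has a share of all genes to be read against. Otc in goblet-like cells was at 102, 116 and 159 CPM in sham and 71.6 and 101 CPM in resection libraries, lower as for 6.32% of genes (7.99% higher); the groups overlapped after TMM scaling. In Paneth-like cells Cps1 was at 9.82, 11.0 and 10.5 CPM in sham and 11.2 and 18.7 CPM in resection libraries, and Ass1 at 1.71, 2.67 and 1.76 against 3.73 and 3.73 CPM, higher as for 6.47% of genes (3.63% lower). These Ass1 values rest on 40 UMIs over the 5 libraries.

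In sums over all epithelial cells, where a change in class shares and a change per cell cannot be told apart, none of the 7 members was called (0% of 11717 genes; none with an unadjusted p below 0.05). DESeq2 (0.313% of genes), library set as a term (0.00853%) and the replicate block (1.39%) called none. Aldh18a1 was at 44.9, 39.0 and 43.1 CPM in the sham libraries and 65.2 and 57.6 in the resection libraries. The groups did not overlap, as for 18.5% of genes in this direction and 1.84% in the other, and the edgeR log2 fold change was 0.34 ± 0.23 (adjusted p 0.99993). The share of enterocyte-like cells among epithelial cells was 55.2%, 63.5% and 57.1% in sham and 68.5% and 68.9% in resection libraries. The enterocyte markers summed to 20488 to 29035 CPM in enterocyte-like cells of sham and 39406 to 41617 CPM in those of resection libraries, with all 12 detected, and T cell markers to 49.2 to 113 and 29.3 to 85.8 CPM. Of these 12, Apoa1 had a mean of 19330 CPM over the 5 libraries, beside 249 for Alpi, 1827 for Sis and 1400 for Slc5a1. The sum thus does not show how many markers differed. The part of the differences in class shares and marker sums in the members' values was not tested.

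**Figure D5:**
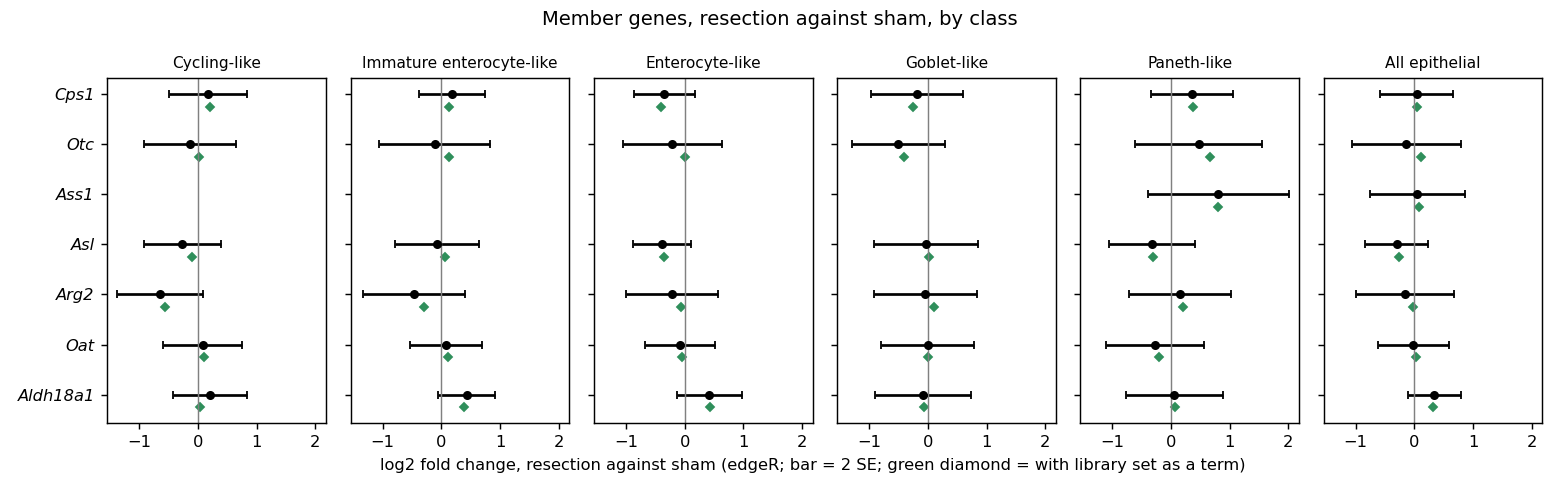
Log2 fold change of each member, resection against sham (x axis), from edgeR in 6 sets of cells, with bars of 2 SE; green diamonds are the fit with library set as a term. Every bar crosses 0, and Ass1 was tested only in Paneth-like cells and all epithelial cells.

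Among the pathway neighbours, 25 of 30 could be tested in enterocyte-like cells. None was called by edgeR without further terms or by DESeq2. With edgeR 2 had an unadjusted p below 0.05, beside 517 of the 10300 genes tested. Aldh4a1, the mitochondrial enzyme that oxidises pyrroline-5-carboxylate to glutamate, was at 17.4, 11.3 and 3.61 CPM in the sham libraries and 47.1 and 20.9 CPM in the resection libraries. Both resection libraries were above every sham library, as for 8.5% of genes (6.61% below). Of the 25 neighbours tested, 2 lay above and 3 below in this way. The edgeR log2 fold change of Aldh4a1 was 1.67 ± 0.53 (p 0.0153, adjusted p 0.806). The difference was 1.47 within sham 1 and resection 1 and 1.52 within the other set. With edgeR the adjusted p of Aldh4a1 was 0.00022 with the replicate number as a block and 0.222 with library set as a term. The labels do not say that the replicate number pairs libraries. Sham 3 has no same-numbered resection library, so the block result rests on the pairs numbered 1 and 2. Aldh4a1 was also higher in the upper than in the lower zone in 5 of 5 libraries (39.4 and 7.10 CPM). In goblet-like cells its log2 fold change was 1.64 ± 0.56 (edgeR adjusted p 0.999965).

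Prodh feeds the same pyrroline-5-carboxylate pool from proline. It was lower in both resection libraries (36.2 and 25.6 CPM) than in any sham library (57.4, 36.9 and 41.2 CPM), as for 6.61% of genes (8.5% higher). Its log2 fold change was -0.57 ± 0.23 (edgeR p 0.0414, adjusted p 0.986). Slc1a5 had the next lowest p, at -1.01 ± 0.47 (edgeR adjusted p 0.998), on levels of 1.67 to 7.54 CPM. Among the neighbours with the highest levels in enterocyte-like cells, log2 fold changes were 0.54 ± 0.40 for Slc6a19, -0.12 ± 0.35 for Slc7a9 and -0.04 ± 0.27 for Slc7a7, each with an edgeR adjusted p of 0.998.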

How the data were processed

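The members and gene lists were chosen with earlier results of these data known. The authors deposited raw UMI counts, made with Cell Ranger from 10x 3' v2 libraries per the labels; the submitters' processing notes name mm10 and GRCm38. Cells needed at least 500 genes and no more than 20% mitochondrial UMIs, and 720 likely doublets (3.80%) were removed by simulation. Cells were clustered (scanpy 1.11.5, leidenalg 0.10.2, resolution 1.0) without the members among the 2000 variable genes, and named from markers by a score set with the data in view; other names would give other shares. Class sums per library, where each library had at least 20 cells, were tested with edgeR 4.0.16 in R 4.3.3 (TMM, filterByExpr, two-sided quasi-likelihood test, threshold 0.05); enterocyte-like sums held 3848348 to 22156213 UMIs. DESeq2 1.42.0 and other scalings, filters and clusterings were alternatives, and the scripts were tested on simulated data. All 7 members are named; of neighbours, the 3 with the lowest p and the 4 with the highest levels in the enterocyte-like surgery test (3 of these 4 reported), while neighbours named elsewhere were chosen after their values were seen; 1 neighbour is counted but not reported here.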

Additional observations from a re-analysis of the deposited data

How the results depend on the processing

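No member was called in any of the 6 sets of cells in 53 alternative fits and 30 leave-one-out fits. For enterocyte-like cells the log2 fold change changed sign at Leiden resolution 0.5 for Cps1 (0.092) and Oat (0.016), with library set as a term for Otc (0.0022), and with the replicate block for Otc (0.061) and Oat (0.10). Leaving out 1 library gave -0.61 to 0.10 for Otc and -0.63 to 0.11 for Arg2 (highest without resection 1), and -0.19 to 0.10 for Oat (highest without sham 3). It gave -0.54 (without resection 1) to -0.18 (without resection 2) for Cps1, -0.63 (without resection 2) to -0.18 (without resection 1) for Asl and 0.22 (without resection 2) to 0.63 (without sham 1) for Aldh18a1. In other classes it gave -0.96 to -0.19 for Otc in goblet-like and -0.999 to -0.37 for Arg2 in cycling-like cells (both lowest without resection 2 and highest without resection 1). Class differences with the same direction in all 5 libraries kept their sign. Differences between enterocyte-like and cycling-like cells became -2.72 for Cps1, -0.39 for Otc and -0.54 for Oat at resolution 0.5. On thinned shares that of Ass1 became -0.69. Between enterocyte-like and immature enterocyte-like cells Arg2 became 0.64 without doublet removal and 0.64 with genes scaled within library, and Oat -0.96 on thinned shares; resolution 0.5 gave no value there. With tip markers alone the upper minus lower zone difference of Oat was -1.08. That of Asl, mixed over the libraries, lay between -0.18 and 0.0056 with 1 library left out, so its sign was not kept. The cause of these shifts was not tested. The labels do not say that replicate numbers pair libraries. Sham 3 has no same-numbered resection library, so the surgery effect with the replicate block rests on the pairs numbered 1 and 2. In enterocyte-like cells, deviations from the group mean correlated over genes at 0.66 and 0.27 for same-numbered pairs. For sham 3 with resection 2 the value was 0.59. With 2 resection libraries these deviations mirror each other (sham 1 with resection 2 at -0.66), so the correlations cannot decide pairing. Over all genes, 0 calls in enterocyte-like cells became 75 with DESeq2, 177 without a filter, 16 with library set as a term and 399 with the replicate block, where Aldh4a1 passed (log2 fold change 1.17, edgeR adjusted p 0.00022; 0.222 with library set as a term); in all epithelial cells 0 became 36, 18, 1 and 163, and Aldh4a1 passed with the replicate block (0.97, edgeR adjusted p 0.0448) and not with library set as a term (0.502). Without resection 2, 3 genes were called in enterocyte-like cells. With 5 libraries, changes inside 2 SE could not be detected, and changes beyond 2 SE could also be missed after adjustment over all genes.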
